A study of Ovis aries with 115 samples.

Results

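The 150 genes whose levels followed those of the mucin gene MUC5AC most closely from ewe to ewe were taken from 15649 genes of the sheep cervix. MUC5AC carries the identifier ENSOARG00000009361 and encodes a secreted, gel-forming mucin. Levels were counts scaled to library size (CPM), put on a log2 scale after adding 0.5. The mean of each breed-and-state group was subtracted from every gene, Pearson r with MUC5AC was taken across 114 ewes, and the 150 genes of highest r were kept, MUC5AC itself left out. Genes had to reach 1 CPM in at least 10 libraries, which 15649 of 27054 identifiers did. All 150 members passed this filter by the choice itself. They were chosen by how single ewes deviated from their group, so r is given as a description and was not tested. Differences between the groups were not used for the choice and were tested, although the same ewes enter the group means.

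RNA was sequenced from mid-cervical tissue, collected post mortem away from the cervical folds, in 4 breeds kept in 2 countries. Suffolk and Belclare ewes came from Ireland and have low and medium pregnancy rates after cervical insemination with frozen-thawed semen, while Fur and Norwegian White Sheep (NWS) ewes came from Norway, where those rates are high. The follicular phase of a synchronised cycle held 10 Belclare, 8 Fur, 10 NWS and 11 Suffolk ewes, the follicular phase of a natural cycle 10, 10, 10 and 8, and the synchronised luteal phase 10, 9, 8 and 10. Cycles were synchronised with a flugestone acetate sponge and equine chorionic gonadotropin, a treatment that the natural-cycle ewes did not receive. Ewes of the synchronised follicular groups were multiparous and 4 to 5 years old, and the age of the others was not given in the sources used here. Since no breed was sampled in both countries, Irish and Norwegian breeds cannot be told apart from their countries. One further library, whose title and labels name different states, was left out of every comparison. Each library is a separate ewe by its label, and the p-values measure only the spread between such ewes.

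The cervical canal is lined by a columnar epithelium that secretes mucus. Gel-forming mucins such as MUC5AC and MUC5B give the mucus its texture, and the secretion is known to become copious and thin around oestrus and scant and thick when progesterone is high. Leukocytes lie in and below this epithelium, and smooth muscle and collagen-rich stroma make up most of the wall. In whole tissue, fewer cells of a type and less RNA per cell cannot be told apart.

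Total counts per library ranged from 12238996 to 31261671 with a median of 17835128, and 3 counts were worth 0.168 CPM at the median depth. No sequencing date or batch was given in the sources used here. Symbols were at hand for 14 of the 150 members, taken from the study's own gene tables, and the other 136 are given by identifier or in counts. Because those tables list genes that differed between breeds, the breed differences of the named members are not independent evidence of a direction.

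MUC5AC varied more between ewes of 1 group than between groups. Over all ewes it ran from 0.715 to 611 CPM with a median of 6.17 CPM. In Suffolk ewes it ranged from 3.1 to 611 CPM (median 12.9) at the synchronised follicular phase, from 1.57 to 15.7 CPM (median 8.33) in the natural cycle, and from 2.6 to 123 CPM (median 13) at the luteal phase. Every Suffolk group overlapped the others. In Belclare ewes it ranged from 2.10 to 57.8 CPM (median 8.31) at the synchronised follicular phase, from 2.90 to 74.1 CPM (median 12.1) in the natural cycle and from 0.826 to 281 CPM (median 3.96) at the luteal phase. Fur ewes were low in each state, from 0.775 to 9.62 CPM (median 4.89), from 1.55 to 8.66 CPM (median 2.97) and from 0.953 to 8.04 CPM (median 1.66) in the same order. No Fur ewe reached 10 CPM. NWS ewes spanned 2.54 to 56.0 CPM (median 6.28), 0.727 to 18.9 CPM (median 5.57) and 0.715 to 9.87 CPM (median 3.05).

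**Figure D1:**
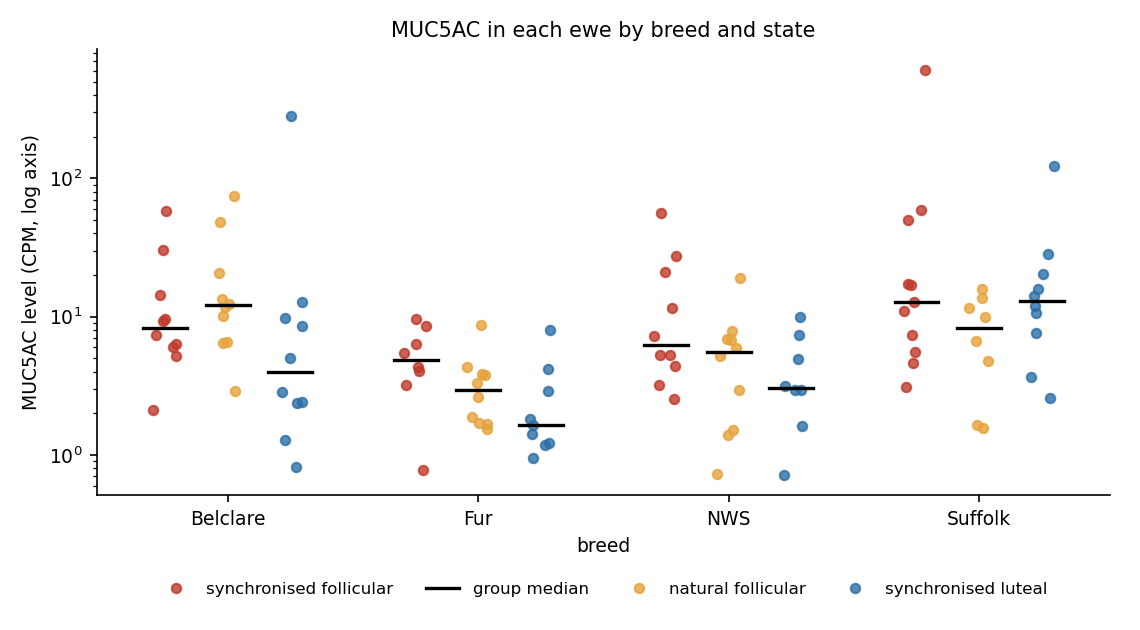
MUC5AC level in CPM (log axis) of each of 114 ewes by breed and state, with a bar at each group's median. The highest ewes are a Suffolk ewe at the synchronised follicular phase (611 CPM) and a Belclare ewe at the luteal phase (281 CPM), and every Fur ewe is at or under 9.62 CPM.

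The phase comparison asked how the synchronised follicular and the synchronised luteal phase differ. Averaged over the 4 breeds, MUC5AC was higher at the follicular phase by 0.96 ± 0.39 (SE) on the log2 scale (edgeR adjusted p = 0.0243). In NWS the difference was 1.97 ± 0.84 (adjusted p = 0.0504) and in Fur 1.21 ± 0.84 (adjusted p = 0.249), neither past the threshold. In Suffolk MUC5AC rose by 1.89 ± 0.74 (adjusted p = 0.0359), but the difference was -0.22 (adjusted p = 0.794) without the Belclare and the Suffolk ewe of highest MUC5AC. In Belclare it was -1.24 ± 0.74 (adjusted p = 0.168) and became 1.73 (adjusted p = 0.0156) without those ewes. The direction of the MUC5AC phase difference in both Irish breeds thus reversed when these ewes, 1 of each breed, were left out together. MUC5AC was lower in Fur than in Suffolk by 2.86 ± 0.48 on the log2 scale (adjusted p = 5.27e-07) and lower in NWS by 1.87 ± 0.46 (adjusted p = 0.000416), as averages of the 3 states, while Belclare differed from Suffolk by -0.12 ± 0.43 (adjusted p = 0.887). Between the synchronised and the natural follicular phase the average difference was 1.21 (edgeR adjusted p = 0.0949). It was 3.31 ± 0.86 in Suffolk (adjusted p = 0.0795) and -0.49 ± 0.73 in Belclare. The synchronised follicular Suffolk group holds the ewe of highest MUC5AC. Neither the breed by phase nor the breed by cycle interaction of MUC5AC was called (edgeR adjusted p = 0.201 and 0.118). The unlike breed values thus do not show that its phase or cycle effect differed between breeds.

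The members' r with MUC5AC ran from 0.415 to 0.786 with a median of 0.466, against a median of -0.05 over all genes tested. Only 3 members exceeded 0.6, and 47 reached 0.5. By Spearman's rank correlation the members' median was 0.352. The points of each r are the same 114 libraries, which share group centring and library scaling. The leading member, ENSOARG00000002786, had r = 0.786 and ranged from 0 to 57.0 CPM with a median of 0.417 CPM. Next to the limit of the set, the last members had r of 0.417, 0.415 and 0.415, and the first genes left out had 0.415, 0.414 and 0.414. Nothing separated the members just inside from the genes just outside.

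The set rested in good part on a few ewes. Belclare luteal ewe 7 stood 5.44 above its group mean in MUC5AC on the log2 scale, 49 members had their highest level of all ewes in it, and 131 members were at least 1 log2 unit above their group mean there. Suffolk synchronised follicular ewe 2 stood 5.07 above, with 34 members at their highest and 123 at least 1 log2 unit above the group mean. In Suffolk luteal ewe 5, at 123 CPM of MUC5AC and a deviation of 3.16, 19 members were at their highest. High MUC5AC did not always go with high members, and the reverse. NWS synchronised follicular ewe 9 had 56.0 CPM of MUC5AC, 2.58 above its group mean, but the median member stood 0.07 above the group mean. NWS luteal ewe 4 had 2.96 CPM of MUC5AC, 0.16 below its group mean, while the median member was 1.0 above and 18 members were at their highest. Without the 4 ewes of largest MUC5AC deviation, the members' median r was 0.325, against 0.02 over all genes. It was above 0 for all 150 and above 0.3 for 98 members. The remaining ewes had also served to choose the members, so these values are not independent of the choice. Choosing anew without the 4 ewes gave 59 of the 150 genes.

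**Figure D2:**
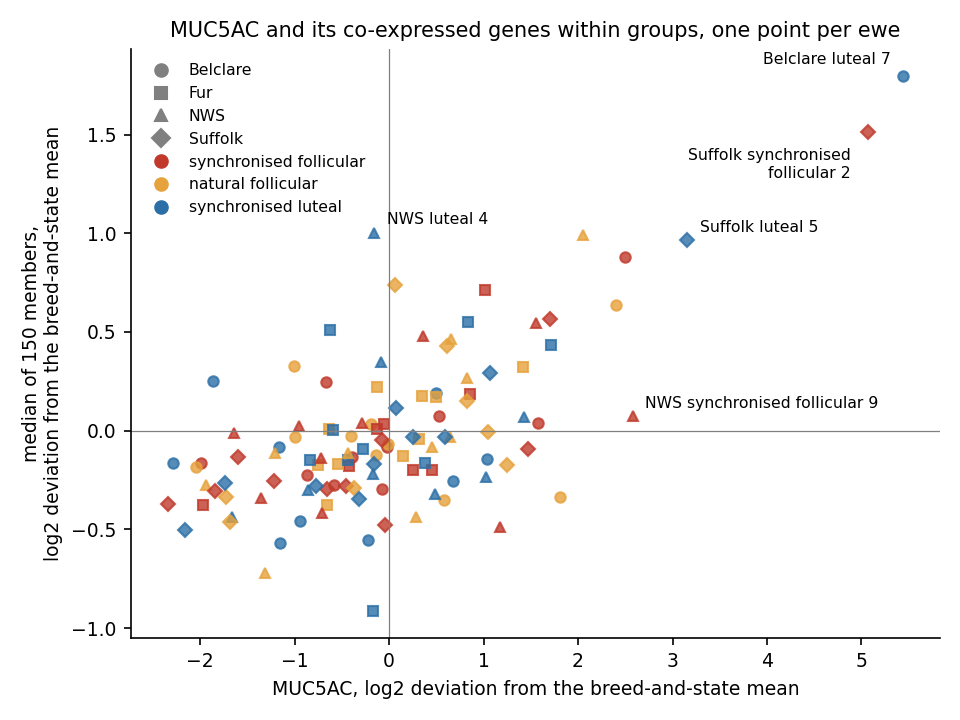
Median deviation of the 150 members from their breed-and-state mean (vertical axis, log2 scale) against the deviation of MUC5AC (horizontal axis, log2 scale) in each of 114 ewes. Belclare luteal ewe 7 and Suffolk synchronised follicular ewe 2 lie farthest to the upper right, while NWS luteal ewe 4 is high in the members and not in MUC5AC.

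The members had a lower r with MUC5AC within the natural cycle than within the synchronised groups. Their median r was 0.542 within the synchronised follicular ewes, 0.365 within the natural follicular ewes and 0.528 within the luteal ewes. An r above 0.3 was found in all 3 states for 105 members. By breed, the median was 0.624 in Suffolk, 0.515 in Belclare, 0.353 in Fur and 0.327 in NWS. These values are part of what chose the members. The ewes of largest MUC5AC deviation were a synchronised luteal Belclare and a synchronised follicular Suffolk ewe. The order of the states and breeds is therefore not read as a trait of the members. Where 150 genes were chosen in the synchronised follicular ewes alone, their median r in the other 75 ewes was 0.395, with 148 of 150 above 0, against a median of -0.04 and 41.4% above 0 over all genes. Genes chosen in the luteal ewes alone had a median of 0.366 in the other 77 ewes, with 147 above 0, against -0.02 and 47.1%. Genes chosen in the natural follicular ewes alone had a median of 0.06 in the other 76 ewes, with 94 above 0, against -0.09 and 31.5%, and 15 of them were among the 150 members. The members themselves had r above 0 in 149 and above 0.3 in 111 of 150 cases within the natural follicular ewes, where the median over all genes was 0.06.

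The members also varied with one another and with the lymphocyte gene CD27. Genes chosen for likeness to 1 gene in these ewes vary together in part by that choice. The r values given here therefore describe the set and are not separate support for it. The median r over the 11175 pairs of members was 0.473. CD27, a member itself at r = 0.478 and rank 67, encodes a co-stimulatory receptor of T and B lymphocytes and was the only gene of the leukocyte list with a symbol. The neutrophil markers with a symbol did not share this likeness. CD177 and 2 identifiers of CXCR2, none of them a member, had r of 0.025, 0.107 and -0.041 with MUC5AC and of 0.087, 0.177 and -0.0098 with CD27. All 3 were higher at the follicular phase, by 1.24, 1.70 and 2.85 on the log2 scale. Over the other 149 members the median r with CD27 was 0.583, all 149 were above 0, and 109 were closer to CD27 than to MUC5AC. Of the 150 members, 79 were among the 150 genes of highest r with CD27, whereas MUC5AC was at rank 251 in that order. The median over all genes was 0.00. The ewes of highest CD27 were Suffolk synchronised follicular ewe 2 (27.4 CPM) and Belclare luteal ewe 7 (23.3 CPM), the same ewes in which MUC5AC was highest. The choice of members rested most on these ewes, and r with CD27 without them is not given. Against smooth muscle the members ran the opposite way. Their median r was -0.34 with ACTG2, the smooth muscle gamma actin, and -0.31 with DES, the intermediate filament protein desmin. No member was above 0 with either, against 36.3% and 39.3% of all genes. MUC5AC itself had r of -0.302 with ACTG2 and -0.368 with DES. Genes chosen for likeness to MUC5AC therefore lean this way in part by the choice. The part of leukocyte and muscle RNA in the likeness to MUC5AC was not tested.

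Of other named mucins, MUC16 had an r of 0.305 with MUC5AC (rank 428), MUC1, a membrane mucin like MUC16, 0.201 (rank 1234) and MUC5B, the other large gel-forming mucin of the cervix, 0.070 (rank 3979). None was a member. Of the lists of genes of mucus biology, 0 of 4 O-glycosylation genes, 0 of 2 secretory pathway genes, 0 of 8 genes of fluid and ion transport, 0 of 7 hormone response genes and 0 of 6 columnar epithelium markers with a symbol were members. The list of luminal secretions and defence gave 2 of its 9 identifiers, both of C3. No identifier was paired with a symbol for the 42 goblet cell genes or the ciliated cell markers, so nothing is shown about those genes, some of which may be among the 136 members without a symbol. The members are therefore called by the rule that chose them and not by a cell type.

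The named members fell into a lymphoid, an epithelial and acute-phase, and a smaller mixed group. Lymphoid members were PTPN7, a tyrosine phosphatase of haematopoietic cells (r = 0.571, rank 8), RINL, a Rab exchange factor (0.543, rank 15), SASH3, a lymphocyte signalling adaptor (0.539, rank 20), IKZF1, the lymphoid transcription factor Ikaros (0.537, rank 21), CD27, and GPR18, a lymphocyte receptor (0.430, rank 130). The secreted or epithelial members were A2ML1, a protease inhibitor of stratified epithelia (0.514, rank 33), AHSG, the plasma glycoprotein fetuin-A (0.444, rank 109), ORM2, an acute-phase orosomucoid (0.443, rank 111), and 2 identifiers of the complement component C3 (0.448, rank 101, and 0.434, rank 120). The identifiers of C3 may be near-identical copies, between which reads cannot be split with certainty. SOAT1, which esterifies cholesterol (0.496, rank 56), ADCY7, an adenylyl cyclase (0.444, rank 108), and TMEM139, a transmembrane protein (0.419, rank 145), made up the rest.

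The median member level of an ewe, the median of its 150 log2(CPM + 0.5) values, was highest in luteal Suffolk ewes. There it ran from 2.00 to 3.64 with a median of 2.40, against 1.30 to 3.75 (median 1.69) at the synchronised follicular phase and 1.07 to 2.38 (median 1.44) in the natural cycle. Belclare ewes ran from 1.38 to 3.83 (median 1.92) at the luteal phase, from 1.0 to 2.53 (median 1.26) at the synchronised follicular phase and from 0.91 to 2.31 (median 1.36) in the natural cycle. The lowest luteal ewe lay above the median follicular ewe of either cycle in both Irish breeds and in NWS but not in Fur, while the ranges overlapped. Fur ewes ran from 0.71 to 2.37 (median 1.63) at the luteal phase, from 1.24 to 2.5 (median 1.47) at the synchronised follicular phase and from 1.03 to 2.08 (median 1.51) in the natural cycle. NWS ewes ran from 1.48 to 3.08 (median 1.77), from 0.86 to 2.18 (median 1.46) and from 0.35 to 2.73 (median 1.25) in the same order. The luteal median was the highest of the 3 states in each breed, by 0.12 in Fur at the least, although MUC5AC itself was lower on average at the luteal phase. In Fur the direction depended on the measure. These levels used total counts, whereas in the edgeR fit with TMM scaling the Fur members' median log2 difference was 0.23, higher at the follicular phase. There 94 of the 150 members were above 0.

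**Figure D3:**
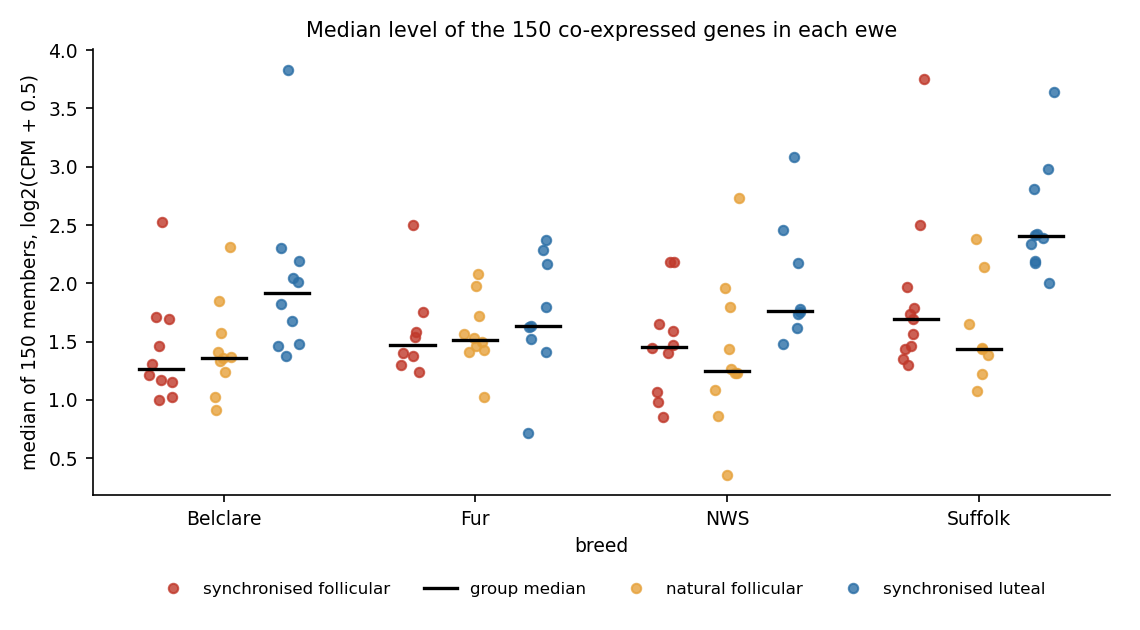
Median level of the 150 members, as log2(CPM + 0.5), in each of 114 ewes by breed and state, with a bar at each group's median. Luteal Suffolk ewes have the highest group median (2.40) and all groups overlap with others of their breed.

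Averaged over the breeds, 60 of the 150 members differed between the follicular and the luteal phase of the synchronised cycle, 21 of them higher and 39 lower at the follicular phase. A difference was called at an adjusted p under 0.05 in edgeR's quasi-likelihood test, adjusted over all genes tested, with a fold change above 1.5. Of all genes tested, 25.4% were called, 12.3% higher and 13.1% lower. The median log2 difference of the members was -0.29, against -0.01 over all genes, and 103 of them were below 0. The members did not move as 1 group with MUC5AC.

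The 21 members called higher held 5 with a symbol, namely SOAT1 and the secreted and epithelial ones except ORM2. Of all tested genes with a symbol, 20.8% were called higher by phase. The other members called higher have no symbol, so the named ones do not stand for them. A2ML1 ranged from 1.54 to 17.6 CPM (median 3.73) at the synchronised follicular and from 0.970 to 10.4 CPM (median 1.93) at the luteal phase. The groups overlapped, and A2ML1 was higher at the follicular phase by 1.22 ± 0.24 on the log2 scale (edgeR adjusted p = 6.07e-06). AHSG ran from 0.118 to 7.23 CPM (median 1.30) against 0.0519 to 3.04 CPM (median 0.414) and was higher by 1.5 ± 0.28 (adjusted p = 2.03e-06). SOAT1 ran from 18.7 to 102 CPM (median 42.0) against 6.33 to 87.3 CPM (median 28.7), a difference of 0.71 ± 0.11 (adjusted p = 4.97e-08). These genes shared a higher follicular level while single ewes of both phases overlapped. The identifiers of C3 were higher by 0.68 ± 0.17 (adjusted p = 0.000387) and 0.72 ± 0.21 (adjusted p = 0.00132). The largest difference was that of ENSOARG00000017457, at 3.27 ± 0.60 (adjusted p = 1.10e-06), a low gene whose median was 1.25 CPM at the follicular and 0.0693 CPM at the luteal phase and which was at 0 in 5 and 12 ewes. The leading member ENSOARG00000002786 was higher by 1.24 ± 0.40 (adjusted p = 0.00433).

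The 39 members called lower held 3 with a symbol, the lymphoid PTPN7 and RINL, and ORM2. Of all tested genes with a symbol, 11.4% were called lower by phase. PTPN7 ran from 0.618 to 7.16 CPM (median 1.51) at the follicular and from 0.918 to 9.75 CPM (median 2.74) at the luteal phase, and fell by 0.65 ± 0.17 on the log2 scale (edgeR adjusted p = 0.000475). RINL fell by 0.61 ± 0.21 (adjusted p = 0.00879). ORM2 was at a median of 0.467 CPM against 1.39 CPM and was lower by 1.36 ± 0.41 (adjusted p = 0.00255). DESeq2 gave ORM2 a log2 difference of -0.11 (adjusted p = 0.778), so the call for this gene depends on the tool. The smallest p was that of ENSOARG00000004803, whose difference was -1.02 ± 0.16 (adjusted p = 1.36e-08), with medians of 2.62 CPM at the follicular and 5.76 CPM at the luteal phase. Other lymphoid members were not called: SASH3 at -0.50 ± 0.18 (adjusted p = 0.00856, under 1.5-fold), IKZF1 at -0.43 ± 0.21 (adjusted p = 0.0532), GPR18 at -0.11 ± 0.22 (adjusted p = 0.662) and CD27 at -0.18 ± 0.24 (adjusted p = 0.503). ADCY7 was at 0.56 ± 0.13 (adjusted p = 0.000109, under 1.5-fold) and TMEM139 at 0.10 ± 0.18 (adjusted p = 0.619).

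The direction by phase went with the likeness to CD27. Members called higher at the follicular phase had a median r with CD27 of 0.435, from 0.177 to 0.565, those called lower 0.638, from 0.326 to 0.816, and the 90 members not called 0.614. The ranges overlapped between 0.326 and 0.565. CD27 itself was measured at 0.541 to 27.4 CPM (median 2.11) at the synchronised follicular phase and 0.467 to 23.3 CPM (median 3.0) at the luteal phase, and its difference was not called.

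**Figure D4:**
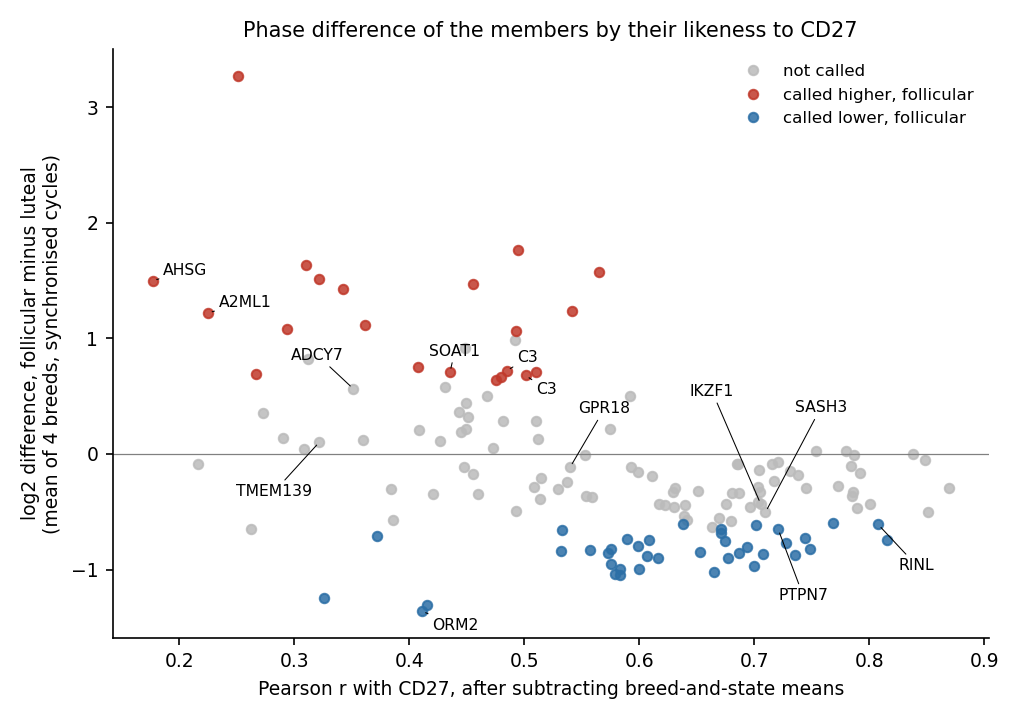
Log2 difference between the synchronised follicular and luteal phases, averaged over 4 breeds (vertical axis), of each member against its r with CD27 (horizontal axis), with members called higher in red, called lower in blue and not called in grey, and CD27 left out. The 21 members called higher have r with CD27 of at most 0.565, and the 39 called lower of at least 0.326.

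Within breeds the pattern was not the same. In Belclare 69 members were called, 3 higher and 66 lower at the follicular phase, where 24.4% of all genes were called, 13.2% higher and 11.2% lower. In Fur 21 were called, all higher, against 11.8% of all genes higher and 11.6% lower (23.5% in all). In NWS 40 were called, 12 higher and 28 lower, against 22.8% of all genes, 10.6% higher and 12.2% lower. In Suffolk 32 were called, 8 higher and 24 lower, against 18.2% of all genes, 9.25% higher and 8.94% lower. The median log2 difference of the members was -0.72 in Belclare, 0.23 in Fur, -0.28 in NWS and -0.25 in Suffolk. Of the members, 62 had opposite signs in Belclare and Fur (20.6% of all genes), 25 were above 0 (32.7%) and 50 below 0 (31.9%) in all 4 breeds. No member was called in the same direction in all 4 breeds, where 4.59% of all genes were called higher and 2.9% lower. In exactly 3 breeds 5 members were called higher and 17 lower (3.35% and 4.58% of all genes), and 40 were called lower in Belclare alone (2.41%).

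The Belclare count changed without the Belclare and the Suffolk ewe of highest MUC5AC, which were left out together. Without Belclare luteal ewe 7 and Suffolk follicular ewe 2, 41 members were called in Belclare, 26 higher and 15 lower, where 25.7% of all genes were called, and 18 of these 41 were among the 69. The members' median difference became -0.12. CD27, at -1.21 ± 0.46 (edgeR adjusted p = 0.0267) with every Belclare ewe, was at -0.46 (adjusted p = 0.37) without those ewes. PTPN7 went from -0.84 to -0.34, RINL from -1.19 to -0.45 and ORM2 from -2.82 to -0.48, each no longer called. SOAT1, the C3 identifiers and AHSG became called as higher in Belclare, at 0.71, 0.91 and 1.06, and 1.27. In Suffolk the count moved the other way, from 32 to 77 members, 3 higher and 74 lower, against 17.6% of all genes. The average over the breeds gave 64 members, 27 higher and 37 lower, against 25.6% of all genes, and 57 of the 64 were among the 60.

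In Fur, where no ewe was high in MUC5AC, the members called higher at the follicular phase included SOAT1 at 1.08 ± 0.24 (edgeR adjusted p = 0.000214), AHSG at 1.82 ± 0.61 (adjusted p = 0.0122), A2ML1 at 1.42 ± 0.51 (adjusted p = 0.0208) and C3 at 1.28 ± 0.37 (adjusted p = 0.00389) and 1.38 ± 0.43 (adjusted p = 0.00763). The lymphoid members did not pass the threshold there, with PTPN7 at -0.46 ± 0.36 (adjusted p = 0.312), IKZF1 at 0.01 ± 0.44 (adjusted p = 0.985) and CD27 at 0.34 ± 0.51 (adjusted p = 0.615). SOAT1 was also called higher in NWS (0.63 ± 0.24, adjusted p = 0.0249) and Suffolk (0.72 ± 0.22, adjusted p = 0.00564), and A2ML1 in Belclare (1.31 ± 0.47, adjusted p = 0.0172) and Suffolk (1.12 ± 0.45, adjusted p = 0.0426). AHSG was called in NWS (1.49 ± 0.60, adjusted p = 0.0393) and Suffolk (1.93 ± 0.52, adjusted p = 0.00198).

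The difference between breeds in the phase effect was tested itself. Only ENSOARG00000009507 of the 150 members passed the breed by phase interaction (edgeR adjusted p = 0.0383), as 0.831% of all genes did, and 17 members had an unadjusted p under 0.05, against 14.3% of all genes. Its levels at the follicular and luteal phase ranged in Belclare from 0 to 0.389 CPM (median 0.0760) and from 0.150 to 14.4 CPM (median 0.516), and in Suffolk from 0 to 6.38 CPM (median 0.182) and from 0.119 to 2.05 CPM (median 1.13). Most of these values lie near the 0.168 CPM that 3 counts are worth. The interaction was not called with no filter on low counts or with only the groups compared in the fit. The phase difference of ENSOARG00000009507 was -4.20 ± 0.76 in Belclare, -0.25 ± 0.63 in Suffolk, -0.36 ± 0.89 in Fur and -0.17 ± 0.75 in NWS, and it was -2.77 ± 0.63 in Belclare without the ewes of highest MUC5AC. For the other members, the unlike counts in the breeds do not show that the phase effect differed.

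The cycle comparison set the synchronised against the natural follicular phase. Of the 150 members 1 was called on average over the breeds, as were 0.109% of all genes (0.0256% as higher), and 17 members had an unadjusted p under 0.05 (17.2% of all genes) while DESeq2 called 2 (0.294%). The member was ENSOARG00000006796, higher in the synchronised cycle by 2.09 ± 0.53 on the log2 scale (edgeR adjusted p = 0.0474), at a median of 0.222 CPM against 0.0969 CPM and at 0 in 5 and 10 ewes. Without the Belclare and Suffolk ewes of highest MUC5AC edgeR called 0 members (0.0192% of all genes). The members' median difference was 0.17, with 119 above 0. Within Belclare, Fur, NWS and Suffolk edgeR called 0 members each, where 0.0128%, 2.51%, 0.511% and 0.0383% of all genes were called. An unadjusted p under 0.05 was held by 5, 3, 5 and 36 members, against 1.99%, 23.9%, 17.8% and 11% of all genes, so that the members lay under the share of all genes in Fur and NWS and above it in Suffolk. The Suffolk synchronised follicular group holds 1 of the ewes on which the choice of members rested most. The Suffolk count is thus not independent of that choice and is not read as a trait of the members. DESeq2 called 0, 1, 0 and 3 members and 0.0128%, 3.26%, 0.978% and 0.313% of all genes. The breed by cycle interaction was called by edgeR and by DESeq2 for 0 members (3.28% of all genes by edgeR), with 13 at an unadjusted p under 0.05 in edgeR (18.0% of all genes).

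Breeds were compared with Suffolk, the breed of lowest fertility, as averages of the 3 states. In Fur 63 members were called, 62 lower and 1 higher, against 13.7% of all genes, 6.59% lower and 7.13% higher. In NWS 42 were called, all lower, against 12.4% of all genes, 5.46% lower and 6.95% higher. In Belclare 6 were called, 5 lower and 1 higher, against 3.74% of all genes, 2.01% lower and 1.73% higher. With no threshold on the fold change, 91, 69 and 17 members were called in Fur, NWS and Belclare, against 50.1%, 46.9% and 10.2% of all genes. The members' median log2 differences were -0.57, -0.44 and -0.34, with those of all genes between -0.02 and -0.01, and 145, 147 and 122 of the 150 members were below 0. The comparisons share the Suffolk ewes. Both Norwegian breeds had 33 members lower, among the 62 of Fur and the 42 of NWS, as had 3.73% of all genes, and 3 were lower in all 3 breeds (0.639%). At the synchronised follicular phase alone, 25 members were lower in Fur, where 12.8% of all genes were called and 5.55% were lower, and 38 in NWS, where 18.7% were called and 9.27% were lower. In Belclare edgeR called 0 (0.109% of all genes) with 60 at an unadjusted p under 0.05 (6.69% of all genes), and DESeq2 called 3 (0.294%). At this phase 6 members in Fur and 14 in NWS were called without the Belclare luteal and the Suffolk follicular ewe of highest MUC5AC. That Suffolk ewe is in the reference group here. The shares of all genes without those ewes are not given for this phase.

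**Figure D5:**
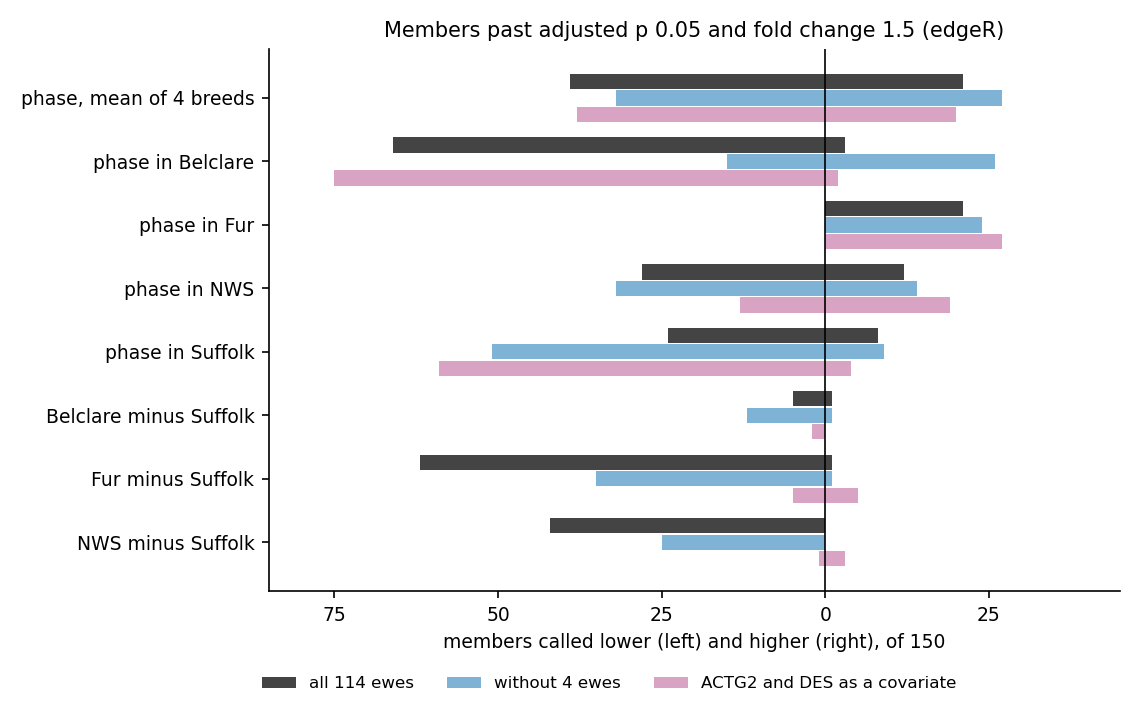
Number of the 150 members called higher (right) and lower (left) by phase and by breed at an edgeR adjusted p under 0.05 and a fold change above 1.5, with all ewes (dark), without the 4 ewes of largest MUC5AC deviation (blue) and with ACTG2 and DES as a covariate (pink). With all ewes the phase bars run from 66 lower in Belclare to 21 higher in Fur. Of all genes, 11.2% were called lower in Belclare and 11.8% higher in Fur. The breed by phase interaction was called for 1 member. Against Suffolk, the Fur and NWS bars with all ewes lie almost wholly on the lower side.

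The 6 lymphoid members were all called lower in Fur and 4 of them in NWS, as were 37.9% and 31.0% of the 1350 tested genes with a symbol. CD27 ranged from 1.11 to 27.4 CPM (median 3.57) in Suffolk, from 0.467 to 5.94 CPM (median 1.48) in Fur and from 0.111 to 7.40 CPM (median 1.68) in NWS. The ranges overlapped, and CD27 was lower by 1.2 ± 0.28 on the log2 scale in Fur (edgeR adjusted p = 0.000228) and by 0.87 ± 0.28 in NWS (adjusted p = 0.00657). In Belclare it ranged from 0.541 to 23.3 CPM (median 2.27), a difference of -0.32 ± 0.27 (adjusted p = 0.46). IKZF1 was lower in Fur (-1.12 ± 0.24, adjusted p = 6.41e-05), NWS (-0.90 ± 0.24, adjusted p = 0.00106) and Belclare (-0.67 ± 0.23, adjusted p = 0.0469). GPR18 was lower in all 3 breeds too, at -1.28, -1.22 and -1.0. SASH3 was lower in Fur (-0.78) and Belclare (-0.66) and not called in NWS (-0.54 ± 0.20, adjusted p = 0.0236, under 1.5-fold). PTPN7 was lower in Fur (-0.81 ± 0.20, adjusted p = 0.000414) and NWS (-0.59 ± 0.20, adjusted p = 0.0101), and RINL in Fur (-0.73 ± 0.25, adjusted p = 0.0118) but not NWS (-0.39 ± 0.25, adjusted p = 0.187). With the smooth muscle genes ACTG2 and DES as a covariate, none of the 6 was called in Fur or NWS, and the values of PTPN7, IKZF1 and CD27 in NWS and of RINL in Fur were above 0, at 0.23, 0.10, 0.04 and 0.08.

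Among the secreted members, AHSG had medians of 1.97 CPM in Suffolk, 1.02 in Belclare, 0.546 in Fur and 0.463 in NWS, and was lower in Fur by 1.79 ± 0.33 on the log2 scale (edgeR adjusted p = 2.73e-06) and in NWS by 2.12 ± 0.33 (adjusted p = 9.03e-08). C3 was lower in Fur by 1.13 and 1.34 and in NWS by 0.86 and 1.13 for its identifiers, and A2ML1 by 0.99 and 0.73. ORM2 was lower in Fur (-1.69 ± 0.50, adjusted p = 0.0035) and at -0.73 ± 0.48 (adjusted p = 0.213) in NWS. TMEM139 was lower in both, at -0.97 and -1.03. Of the 14 named members, 13 were lower in Fur, ADCY7 (-0.57 ± 0.15, under 1.5-fold) being the exception, and 10 were lower in NWS. Of all 1350 tested genes with a symbol, 37.9% were lower in Fur and 31.0% in NWS. The leading member ENSOARG00000002786 was lower in Fur by 3.13 ± 0.50 (adjusted p = 1.23e-07) and in NWS by 2.14 ± 0.46 (adjusted p = 7.55e-05). The single member called higher in Fur and in Belclare was ENSOARG00000011545, at 1.14 ± 0.38 (adjusted p = 0.00888) and 1.12 ± 0.37 (adjusted p = 0.0383). Of the 62 members lower in Fur, 16 were called higher and 16 lower at the follicular phase, where 12.3% and 13.1% of all genes were called.

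Smooth muscle genes moved with the breeds in the opposite direction. ACTG2 had medians of 139 CPM in Suffolk, 193 in Belclare, 1405 in Fur and 1688 in NWS, and DES 293, 237, 2343 and 2838 CPM. Both were higher in Fur and in NWS than in Suffolk, with a median log2 difference of 2.74 and 2.82, and so was the fibroblast gene PI16 (3.36 and 3.33). With the level of ACTG2 and DES as a covariate, 10 members were called in Fur, 5 in each direction (8.91% of all genes), and 4 in NWS, 3 higher and 1 lower (3.04% of all genes), and the members' median differences were 0.09 and 0.21. MUC5AC was then at -1.04 (adjusted p = 0.147) in Fur and -0.02 (adjusted p = 0.988) in NWS. The levels of ACTG2 and DES and the breed move together in these ewes, and their shares in the lower member levels cannot be told apart. By phase the same covariate gave 58 members on average, 20 higher and 38 lower (25.1% of all genes), 57 of them among the 60. It gave 77 in Belclare (25.5%) and 63 in Suffolk, up from 32, 4 higher and 59 lower (19.4%). In Fur it gave 27, all higher, and in NWS 32, of which 19 were higher and 13 lower where 12 and 28 had been. Without the covariate 23.5% and 22.8% of all genes were called by phase in Fur and NWS. The shares with it are not given, so these counts are not read as a result about the members.

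Without the ewes of largest MUC5AC deviation the counts against Suffolk were lower in Fur and NWS and higher in Belclare. Leaving out Belclare luteal ewe 7 and Suffolk follicular ewe 2 gave 46 members in Fur, 45 of them lower, against 13.4% of all genes, 31 in NWS, against 12.3%, and 17 in Belclare, against 4.35%. Leaving out Suffolk luteal ewe 5 and NWS follicular ewe 9 as well gave 36 in Fur, 35 of them lower (13.4% of all genes), and 25 in NWS (12.3%). In Belclare, at 6 with all ewes, the count was then 13, 12 of them lower, against 4.01% of all genes. Of the 150 members, 52 were called in none of the averaged comparisons. The share of all genes called in none of them is not given, so this count only describes the members.

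List genes could be found only where the study's tables of breed differences gave a symbol, so their breed counts are not independent evidence of a direction. Of the 1350 tested genes with a symbol, 37.9% were lower in Fur and 31.0% in NWS than in Suffolk, against 6.59% and 5.46% of all genes, and 20.8% were higher and 11.4% lower by phase, against 12.3% and 13.1%. All 4 mucins with a symbol, MUC5AC included, were higher at the follicular phase (median log2 difference 1.02) and lower in Fur (-1.11) and in NWS (-1.04). Of the 9 identifiers of luminal secretions and defence, 7 were higher at the follicular phase, 6 were lower in Fur and 7 in NWS. Of 8 transport genes 5 were higher and 2 lower by phase, and of 6 columnar epithelium markers 1 was lower by phase and 4 each were lower in Fur and NWS. By phase, the other 3 mucins were called in the direction of MUC5AC, as were 21 of the 150 members, while 39 members were called in the opposite direction and 103 were below 0.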

How the data were processed

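Per the labels and the study's methods, the authors trimmed the reads of poly-A selected, stranded libraries, used STAR 2.6.1b with the Oar_v3.1 assembly for alignment, kept uniquely mapped pairs and deposited raw counts per Ensembl gene from featureCounts (Subread 1.6.3 in the submitters' processing notes). Whether counting used the strand was not given in the sources used here, and reads of near-identical genes are lost by this mapping. The 150 members and the lists were chosen with earlier results of these data known. CPM used total counts. Groups were compared with edgeR 4.0.16 in R 4.3.3, by its quasi-likelihood test after TMM scaling, in 1 fit of 12 groups, with Benjamini-Hochberg adjustment over the 15649 genes of at least 1 CPM in at least 10 libraries, and the procedure was tested on simulated data. The SE is that of the log2 difference. The alternatives were DESeq2 1.42.0 (its size factors, its test), other filters (none, or at least 10 counts in every library), no fold threshold, the replicate number as a block, fits of only the groups compared, and other choices of members (Spearman's rho, TMM-scaled CPM, 2 added in place of 0.5, single states, each ewe left out). Fits without 2 or 4 ewes of largest MUC5AC deviation and with ACTG2 and DES as a covariate were added after the data were seen. Named were MUC5AC, members in a list, the 20 of highest r, for each averaged comparison the 3 higher and 3 lower members of smallest p, the genes next to the limit of the set and mucins. A2ML1, IKZF1, ADCY7 and ORM2, members with a symbol, and the markers ACTG2, DES, PI16, CXCR2 and CD177 fall outside this rule and were chosen after their values were seen. Symbols came from the study's tables, since the reference table held no Ensembl identifiers. Of 115 libraries 1 was unassigned because its title and labels disagree.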

Additional observations from a re-analysis of the deposited data

Results flagged for a closer look

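In Belclare luteal ewe 7, MUC5AC stood at 8.1371 on the log2(CPM + 0.5) scale, far from the other 9 ewes of its group, whose median with it was 2.11, and its median member level was 3.8333, also apart from the rest (group median 1.92). The median member level of Belclare synchronised follicular ewe 9 was 2.529 (group median 1.26) and that of Fur synchronised follicular ewe 1 was 2.5005 (group median 1.47), each apart from the rest of its group. In the same Belclare ewe MUC5AC was at 57.8 CPM, the highest of its group. Of 22 groups of values examined in this way, chance would mark about 1 in 20. The phase difference of ENSOARG00000009507 was called as differing between the breeds (edgeR adjusted p = 0.03825 for the breed by phase interaction), at -4.20 ± 0.76 (SE, log2 scale) in Belclare and between -0.36 and -0.17 in the other breeds. Of all genes 0.831% passed this interaction. The call was lost with no filter on low counts and with only the groups compared in the fit.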

How the results depend on the processing

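Over 18 counts of called members, 154 of 214 values under other settings stayed within 1.5 times the main count. DESeq2's size factors and members chosen by TMM-scaled CPM moved none. With DESeq2's tests 2 members were called by cycle on average, 1 in Fur and 3 in Suffolk, 3 in Belclare against Suffolk at the synchronised follicular phase and 3 in the breed by phase interaction. With no filter on low counts the cycle average and the phase interaction gave 0 and the Belclare average 3. With at least 10 counts in every library, which left 69 members to test, the averages gave 26 (phase), 0 (cycle), 2 (Belclare), 21 (Fur) and 16 (NWS), phase gave 30 in Belclare, 24 in NWS and 18 in Suffolk, the synchronised follicular comparisons 8 (Fur) and 22 (NWS), and the phase interaction 0. With only the groups compared in the fit, the cycle average gave 0, the Belclare average 2, phase in Belclare 40, cycle in Fur 1 and the phase interaction 0. With no fold threshold the Belclare average gave 17 and the NWS average 69. Members chosen by Spearman's rho gave 36 by phase and 1 by cycle in Fur, and 2 in each interaction. Replicate numbers in the titles are shared by different animals (median r of deviations -0.0098 over 590 pairs of the same number, 167 of them above 0.1, against 0.0004 over 5361 other pairs), so they pair nothing. With the replicate block the cycle average gave 0, the Belclare average 2 and the phase interaction 0, and the MUC5AC phase difference was 0.81 on average (edgeR adjusted p = 0.0707) and 1.27 in Suffolk (adjusted p = 0.214), neither past the threshold. Without the 2 ewes of largest MUC5AC deviation the counts were 0 (cycle average), 17 (Belclare average), 41 and 77 (phase in Belclare and Suffolk), 1 (cycle in Fur), 6 and 14 (Fur and NWS, synchronised follicular), 3 (phase interaction) and 1 (cycle interaction), and MUC5AC by phase reversed to 1.73 in Belclare and -0.22 in Suffolk. Without 4 ewes they were 0, 13 (Belclare average), 36 (Fur average), 25 (NWS average), 41 and 60 (phase in Belclare and Suffolk), 1 (cycle in Fur), 7 and 15 (Fur and NWS, synchronised follicular), and MUC5AC in Belclare was 1.72. With ACTG2 and DES as a covariate they were 0 (cycle average), 2, 10 and 4 (Belclare, Fur and NWS averages), 63 (phase in Suffolk), 1 (cycle in Fur), 5 and 3 (Fur and NWS, synchronised follicular) and 5 (phase interaction). The covariate reversed these breed differences from Suffolk: MUC5AC in NWS at the synchronised follicular phase (0.38), PTPN7 (0.23), IKZF1 (0.10), A2ML1 (0.50), CD27 (0.0365), ADCY7 (0.0037), ENSOARG00000011962 (0.0692) and ENSOARG00000017457 (0.39) in NWS, and RINL (0.0785), A2ML1 (0.19), ENSOARG00000011962 (0.0601) and ENSOARG00000019197 (0.14) in Fur. The cause was not tested. Of the 150 members, 84 were chosen again by Spearman's rho, 143 with TMM, 128 with 2 added, 103, 15 and 87 in the synchronised follicular, natural follicular and luteal ewes alone, and 123 to 150 with 1 ewe left out, the fewest without Belclare luteal ewe 7 and 128 without Suffolk follicular ewe 2. Depth limits the 46 members with a median under 1 CPM.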

Other observations

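The library whose title and labels name different states held 15387419 counts. MUC5AC was at 13.6 CPM in it, from 210 counts, CD27 at 2.53 CPM, and the median level of the 150 members at 2.03 on the log2(CPM + 0.5) scale.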
